A study of Mus musculus with 6 samples.

Results

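The genes described here are 10 germline and meiosis genes whose promoters are known to be held silent by DNA methylation in somatic cells, out of 21938 protein-coding genes of the mouse. They were taken by name (Stra8, Dazl, Ddx4, Mael, Piwil2, Sycp1, Sycp3, Hormad1, Stk31 and Slc25a31), and all 10 were found in GENCODE release M21 on the genome build GRCm38. The Tex10 protein and histone H3 trimethylated at lysine 4 (H3K4me3) were mapped by ChIP-seq, the sequencing of DNA pulled down with an antibody, in primordial germ cell-like cells. These are mouse cells cultured towards the embryonic precursors of eggs and sperm, here at day 2 of the culture. Whether they were sorted before use is not given in the sources used here. There were 6 samples, all untreated and of strain 129Sv/J, with 2 for an antibody to the HA tag fused to the C-terminus of Tex10, 2 for H3K4me3 and 2 of input DNA. Each antibody has 1 deposited list of genomic intervals with no score, beside a subset of the HA-Tex10 list that overlaps H3K4me3, so no value below has a replicate error and no test compares samples. The depth of the samples is unknown. DNA methylation was not measured in these samples.

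The later germline programme covers entry into meiosis, pairing of homologous chromosomes, and the defence of the genome against transposons by small piRNAs. Promoters of such genes often carry many CpG dinucleotides, which stay methylated in most somatic tissues and lose the methyl group in the germ line. A variant Polycomb complex, PRC1.6, is known to help keep them silent. Its MGA and MAX subunits bind the E-box CACGTG, and its E2F6 subunit binds a GC-rich E2F site. H3K4me3 is a mark of promoters that are active or free of DNA methylation.

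To show what the promoters look like, 250 bases before the reference transcription start site (TSS, the start of the principal coding transcript) are printed for 6 of the genes, 5′ to 3′ in the direction of transcription, from the RefSeq copy of GRCm38. Capitals mark matches to the E2F6-type motif GCGGGA, read as TCCCGC on the other strand, and to the E-box CACGTG. Hormad1 and Sycp3 are shown because H3K4me3 lay close to their TSS, and Sycp1 and Mael because they hold the same motifs without the mark there. The E2F6-type match of Sycp1 begins 2 bases downstream of the TSS, beyond the printed stretch. Dazl is a CpG-rich promoter without either motif, and Stra8 is the CpG-poor promoter of the set.
Hormad1, chr3:95559427-95559676, plus strand: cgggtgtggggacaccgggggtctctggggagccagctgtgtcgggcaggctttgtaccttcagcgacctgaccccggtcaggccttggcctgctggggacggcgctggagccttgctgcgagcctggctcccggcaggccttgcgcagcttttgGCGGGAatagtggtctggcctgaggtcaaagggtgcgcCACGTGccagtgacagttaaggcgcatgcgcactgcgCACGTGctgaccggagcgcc
Sycp3, chr10:88459319-88459568, plus strand: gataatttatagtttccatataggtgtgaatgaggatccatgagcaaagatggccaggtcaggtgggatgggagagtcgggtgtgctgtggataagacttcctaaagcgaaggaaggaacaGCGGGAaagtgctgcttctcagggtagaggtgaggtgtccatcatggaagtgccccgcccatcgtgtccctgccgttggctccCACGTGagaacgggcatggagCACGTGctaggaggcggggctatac
Sycp1, chr3:102936101-102936350, minus strand: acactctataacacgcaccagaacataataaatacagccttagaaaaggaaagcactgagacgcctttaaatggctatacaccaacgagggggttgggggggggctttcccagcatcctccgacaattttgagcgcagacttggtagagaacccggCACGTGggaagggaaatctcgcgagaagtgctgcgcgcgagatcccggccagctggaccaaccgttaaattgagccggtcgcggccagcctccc
Mael, chr1:166238745-166238994, minus strand: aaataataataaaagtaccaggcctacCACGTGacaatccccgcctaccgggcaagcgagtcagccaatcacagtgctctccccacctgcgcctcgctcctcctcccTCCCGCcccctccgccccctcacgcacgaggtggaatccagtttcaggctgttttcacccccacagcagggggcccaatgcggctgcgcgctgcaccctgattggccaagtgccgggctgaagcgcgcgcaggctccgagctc
Dazl, chr17:50293637-50293886, minus strand: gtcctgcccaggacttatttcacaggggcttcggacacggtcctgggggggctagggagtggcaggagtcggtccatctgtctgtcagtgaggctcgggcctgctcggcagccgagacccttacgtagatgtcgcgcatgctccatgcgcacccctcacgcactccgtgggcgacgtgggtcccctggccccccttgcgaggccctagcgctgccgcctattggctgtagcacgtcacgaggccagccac
Stra8, chr6:34919913-34920162, plus strand: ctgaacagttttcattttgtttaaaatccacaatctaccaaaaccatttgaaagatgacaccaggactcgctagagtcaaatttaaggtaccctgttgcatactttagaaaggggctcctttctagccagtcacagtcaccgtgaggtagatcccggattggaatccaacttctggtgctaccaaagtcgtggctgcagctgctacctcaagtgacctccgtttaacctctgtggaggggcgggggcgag

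H3K4me3 was found within 1 kb of an annotated TSS at 3 of the 10 genes, Sycp3, Hormad1 and Sycp1, and was not found at the other 7. Over all protein-coding genes the share was 61.6%. The Sycp1 interval lay at an internal noncoding transcript start far from the promoter of the gene. At the starts of coding transcripts, 2 of 10 genes had the mark, Sycp3 and Hormad1, against 60.7% of all genes. No HA-Tex10 interval lay within 1 kb of any TSS of the 10 genes. The share over all genes was 8.98%, so a count of 0 among 10 is close to the background and nothing is read from it. The genes were chosen by name with results of these data known, and no test was made over the list.

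**Figure D1:**
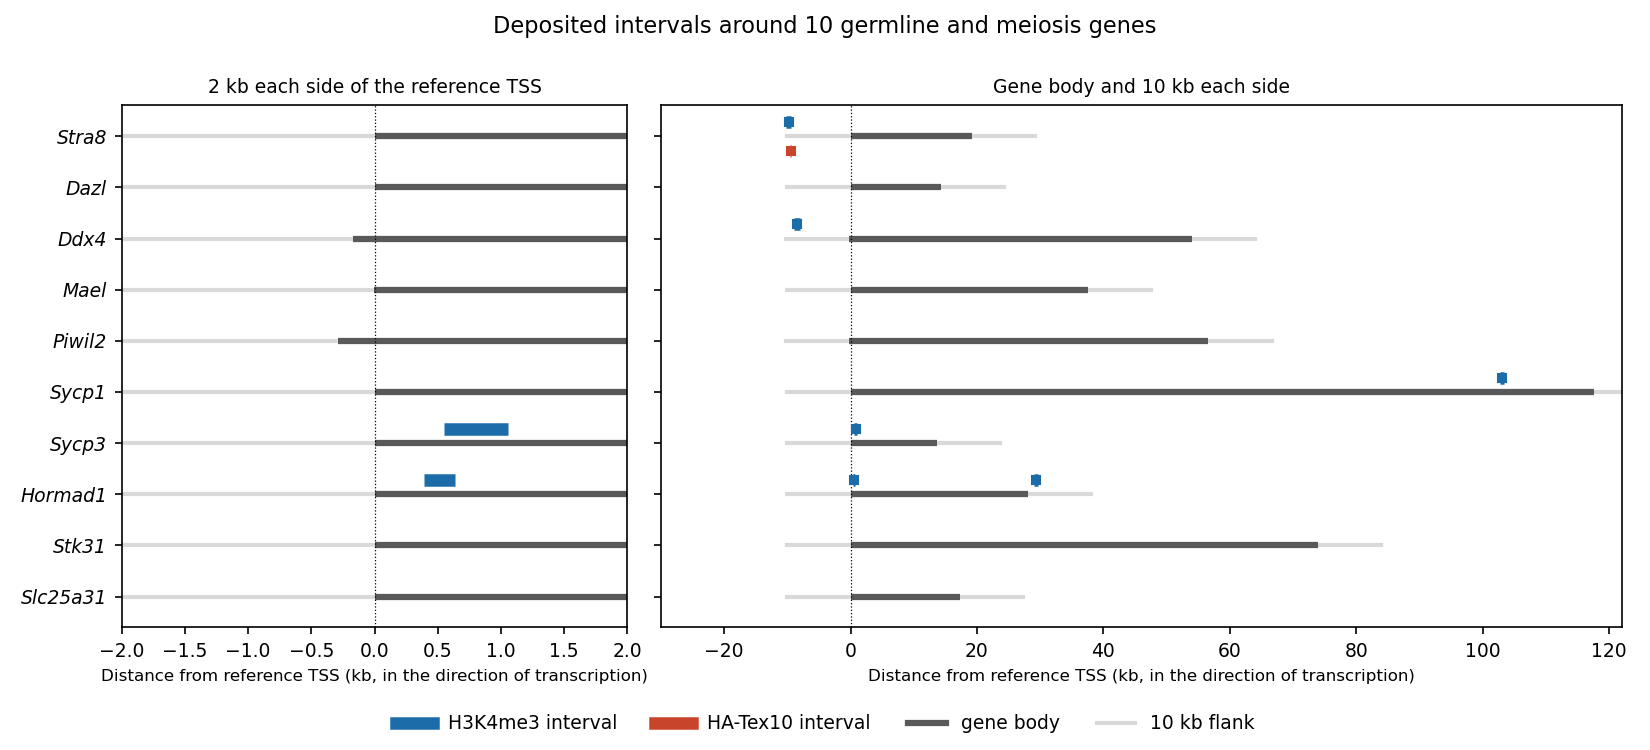
Deposited intervals at the 10 genes, drawn to scale along the distance from the reference TSS in kb, with 2 kb each side on the left and the gene with 10 kb each side on the right. Blue bars are H3K4me3 intervals and red bars HA-Tex10 intervals, with square symbols at their centres on the right, where bars are too short to see. H3K4me3 lies close to the TSS in Sycp3 and Hormad1, in both cases downstream of it.

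Among the genes of meiotic chromosome structure, Sycp3 encodes a core protein of the axes that become the lateral elements of the synaptonemal complex. It lies on the plus strand of chromosome 10 from 88459569 to 88473236 (ENSMUSG00000020059.9). Its H3K4me3 interval ran from 88460120 to 88460625, 506 bp wide. The interval began 551 bp and ended 1056 bp downstream of the reference TSS, and all of its bases were intronic. It did not reach the promoter printed above, with its E2F6-type match and 2 E-boxes. Of 12852 genes with H3K4me3 within 1 kb of the reference TSS, 118 (0.918%) had a nearest interval starting as far downstream. No 32-base word of the interval occurred elsewhere on the assembled chromosomes.

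Hormad1 encodes a protein of the meiotic chromosome axis needed for recombination and synapsis. The gene lies on the plus strand of chromosome 3 from 95559677 to 95587671 (ENSMUSG00000028109.14). Its interval spanned 95560068 to 95560316, 249 bp, from 391 to 639 bp downstream of the reference TSS and wholly in intronic sequence. Of the same 12852 genes, 231 (1.80%) had a nearest interval starting as far downstream. Repeated words made up 5.05% of this interval. In both genes the interval thus lay beside the TSS without covering it, whereas 78.4% of genes marked within 1 kb had an interval across the reference TSS.

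Sycp1 encodes the transverse filament that joins paired chromosomes. The gene is on chromosome 3, minus strand, spanning 102818499 to 102936100 (ENSMUSG00000027855.13). Its H3K4me3 interval, 648 bp from 102832763 to 102833410, lay 102690 to 103337 bp downstream of the reference TSS. It was 473 bp from the start of a noncoding processed transcript, and all of its bases were intronic. Each of its 617 words of 32 bases had further copies in the reference, with a median of 2042 occurrences and a range of 11 to 5773, and 100% of it was masked as repeat. Because of its distance from the promoter, results given for the reference TSS do not count it. The read length, which bears on how far reads could be placed, was not examined. From the reference TSS of Sycp1, the nearest H3K4me3 interval was 47.5 kb upstream.

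The intervals at the 3 genes were narrow. Over the 13514 genes with H3K4me3 at a TSS, the widest interval of a gene had a median width of 1343 bp, and from the 25th to the 75th percentile it was 861 to 1966 bp. The Hormad1 interval was wider than that of 1.45% of these genes, the Sycp3 interval than 9.74% and the Sycp1 interval than 15.7%. All 3 were below the median of the whole H3K4me3 list, 710 bp. Keeping only intervals above that median therefore left 0 of the 10 genes with H3K4me3 at a TSS. Over all protein-coding genes, the same setting left 11040 of the 13514. The lists hold no score, so whether width follows the strength of an interval was not tested.

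**Figure D2:**
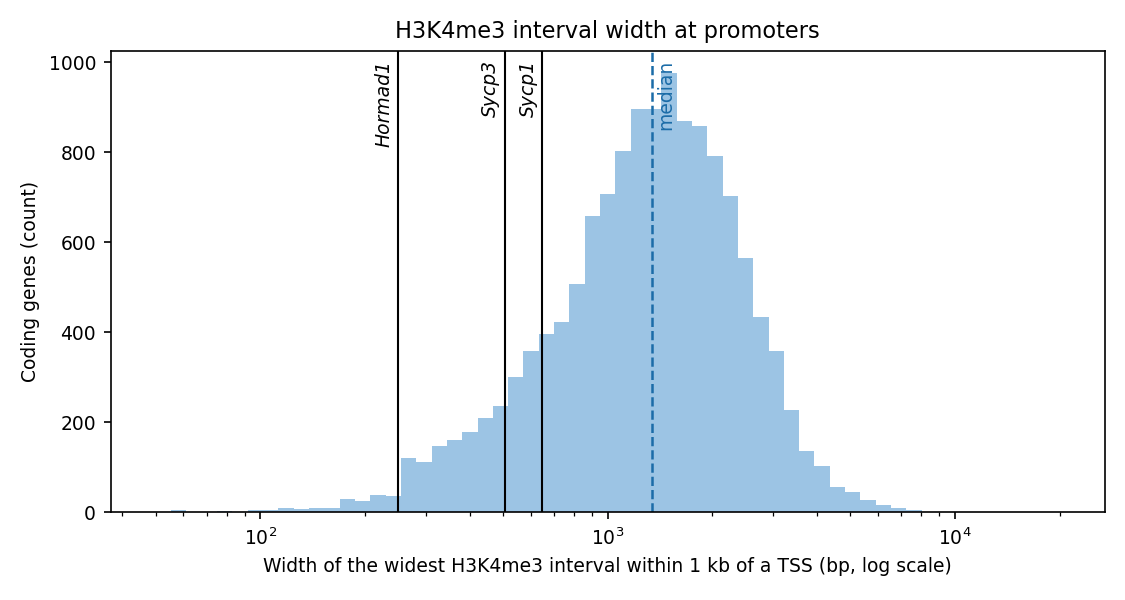
Histogram of the widest H3K4me3 interval within 1 kb of a TSS for each marked protein-coding gene, with width in bp on a log axis and the number of genes on the other. Black lines give Hormad1 (249 bp), Sycp3 (506 bp) and Sycp1 (648 bp), all left of the dashed median of 1343 bp.

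The piRNA pathway was represented by Piwil2, an Argonaute protein that carries piRNAs, and Mael, which acts in transposon silencing. Piwil2 is on chromosome 14, minus strand, spanning 70372477 to 70429383 (ENSMUSG00000033644.5). It had no interval of either antibody in its body or within 10 kb. Its nearest H3K4me3 interval lay 13.8 kb upstream of the reference TSS, and its nearest HA-Tex10 interval 14.5 kb upstream. Both were at Polr3d, a subunit gene of an RNA polymerase, and Mir320. These neighbours were named after their values were seen. Mael, on chromosome 1, minus strand, spanning 166201201 to 166238747 (ENSMUSG00000040629.8), likewise had no interval in that window. Its nearest H3K4me3 interval was 15.4 kb upstream and its nearest HA-Tex10 interval 186 kb upstream.

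The RNA regulators of germ cells were also without the mark at their promoters. Dazl, an RNA-binding protein needed for germ cells to enter gametogenesis, is on chromosome 17, minus strand, spanning 50279395 to 50293636 (ENSMUSG00000010592.9). Its nearest H3K4me3 interval was 103 kb away, the longest such distance of the 10 genes. Its nearest HA-Tex10 interval was 2088 kb away, farther than for 97.2% of protein-coding genes. Ddx4, the Vasa RNA helicase of germ granules, is on chromosome 13, minus strand, spanning 112598333 to 112652475 (ENSMUSG00000021758.14). An H3K4me3 interval of 906 bp, from 112660368 to 112661273, lay 8067 bp upstream of its reference TSS. That interval contained a TSS of Slc38a9, a lysosomal amino acid transporter gene on the opposite strand.

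Stra8, which is induced by retinoic acid and drives entry into meiosis, lies on the plus strand of chromosome 6 from 34920163 to 34939344 (ENSMUSG00000029848.11). It had no interval at any of its 4 TSS. An H3K4me3 interval of 876 bp, from 34909933 to 34910808, ended 9355 bp upstream of the reference TSS. Inside it lay an HA-Tex10 interval of 80 bp, from 34910649 to 34910728, the only one within 10 kb of the body of any of the 10 genes. Both intervals contained a TSS of Wdr91, an endosomal protein gene on the opposite strand.

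Stk31, a germ cell protein with kinase and Tudor domains, lies on the plus strand of chromosome 6 from 49395604 to 49469501 (ENSMUSG00000023403.14). Slc25a31, the germ cell form of the mitochondrial ADP/ATP carrier, lies on the plus strand of chromosome 3 from 40708855 to 40726096 (ENSMUSG00000069041.8). Neither had an interval of either antibody in its body or within 10 kb. The nearest H3K4me3 interval was 26.8 kb from the reference TSS of Stk31 and 36.4 kb from that of Slc25a31. The nearest HA-Tex10 intervals were 76.4 kb and 158 kb away.

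Counting the gene body and 10 kb on each side, 5 of the 10 genes had an H3K4me3 interval, against 70.7% of all genes. For Stra8 and Ddx4 it was the interval of the neighbouring promoter. Hormad1 had a further interval of 667 bp, from 95588682 to 95589348, at TSS of the Golgi protein gene Golph3l and of Gm42671 beyond its end. With intervals at the TSS of other genes left out, 3 genes remained, those with an interval in their own body. An HA-Tex10 interval was present in this wider window at 1 of 10 genes, Stra8, against 17.0% of all genes. The median distance from the reference TSS to the nearest HA-Tex10 interval was 172088 bp for the 10 genes and 167968 bp for all genes. For H3K4me3 the medians were 14594 bp and 48 bp. The HA-Tex10 distances of the 10 genes were thus like those of other genes at the median, and the H3K4me3 distances were longer.

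**Figure D3:**
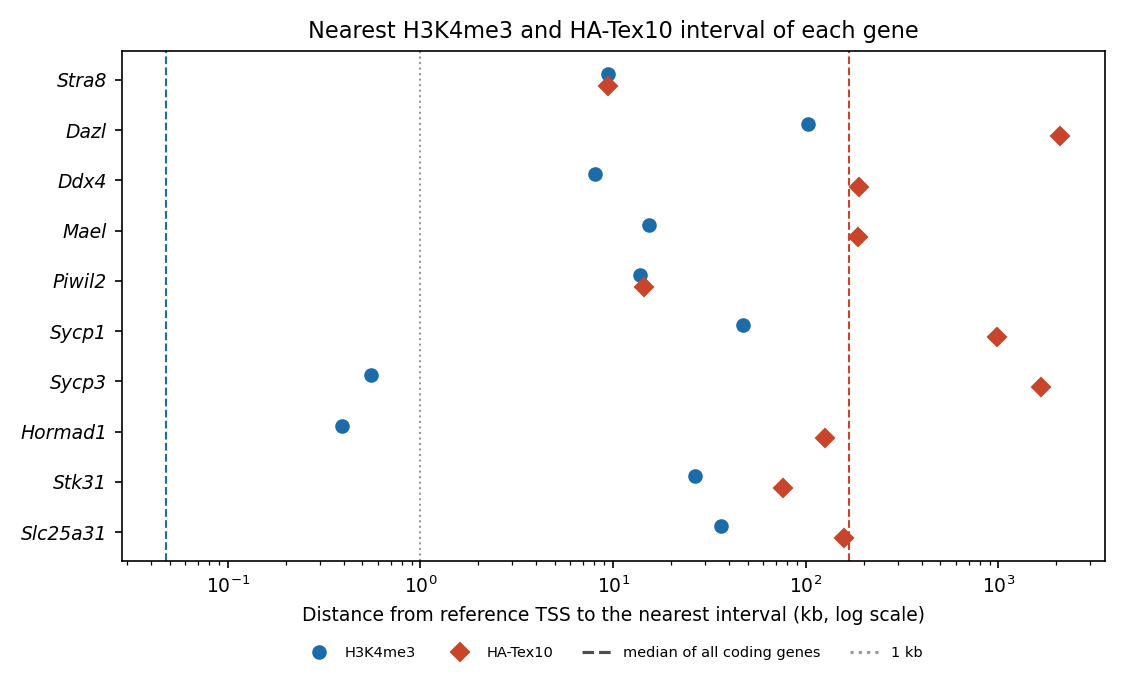
Distance from the reference TSS of each of the 10 genes to the nearest H3K4me3 interval (circles) and HA-Tex10 interval (diamonds), in kb on a log axis. Dashed lines are the medians of all protein-coding genes and the dotted line is 1 kb. Hormad1 and Sycp3 have H3K4me3 within 1 kb, and the HA-Tex10 distances lie on both sides of the median.

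Most of the unmarked promoters were not poor in CpG. In the 1 kb around the reference TSS, the 10 genes had a median GC content of 57.5% (range 47 to 64.4%) and a median CpG observed/expected ratio of 0.705 (0.254 to 0.754). Genes with H3K4me3 at any TSS had medians of 59.7% and 0.728, and genes without it 46.1% and 0.185. The 10 genes were therefore close to marked genes in these measures. Ddx4 had 78 CpG in this 1 kb and Dazl 70, against a median of 64 in marked genes and 10 in unmarked genes. The exceptions were Stra8 with 14 CpG and a ratio of 0.254, and Piwil2 with 36 CpG and a ratio of 0.425.

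Promoters were placed in CpG classes from 500 bp windows between 1300 bp upstream and 200 bp downstream of the reference TSS. A promoter was high where a window had a CpG ratio over 0.75 with GC over 55%, low where no window had a ratio over 0.48, and intermediate otherwise. Of the 10 genes, 6 were high (Dazl, Ddx4, Mael, Sycp1, Hormad1 and Stk31), 3 intermediate (Piwil2, Sycp3 and Slc25a31) and 1 low (Stra8). Over all genes, H3K4me3 within 1 kb of the reference TSS was present at 58.6%. By class it was present at 97.2% of 7859 high promoters (95% Wilson interval 96.8 to 97.5%), 73.4% of 5763 intermediate and 11.9% of 8316 low promoters. Among the 6 high promoters described here, 1 had it, Hormad1, and 5 did not. Dazl, Ddx4, Mael, Sycp1 and Stk31 thus belong to the 222 high-CpG genes (2.82%) without the mark at the reference TSS. Among the 3 intermediate promoters, Sycp3 had it, and the low promoter of Stra8 did not.

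**Figure D4:**
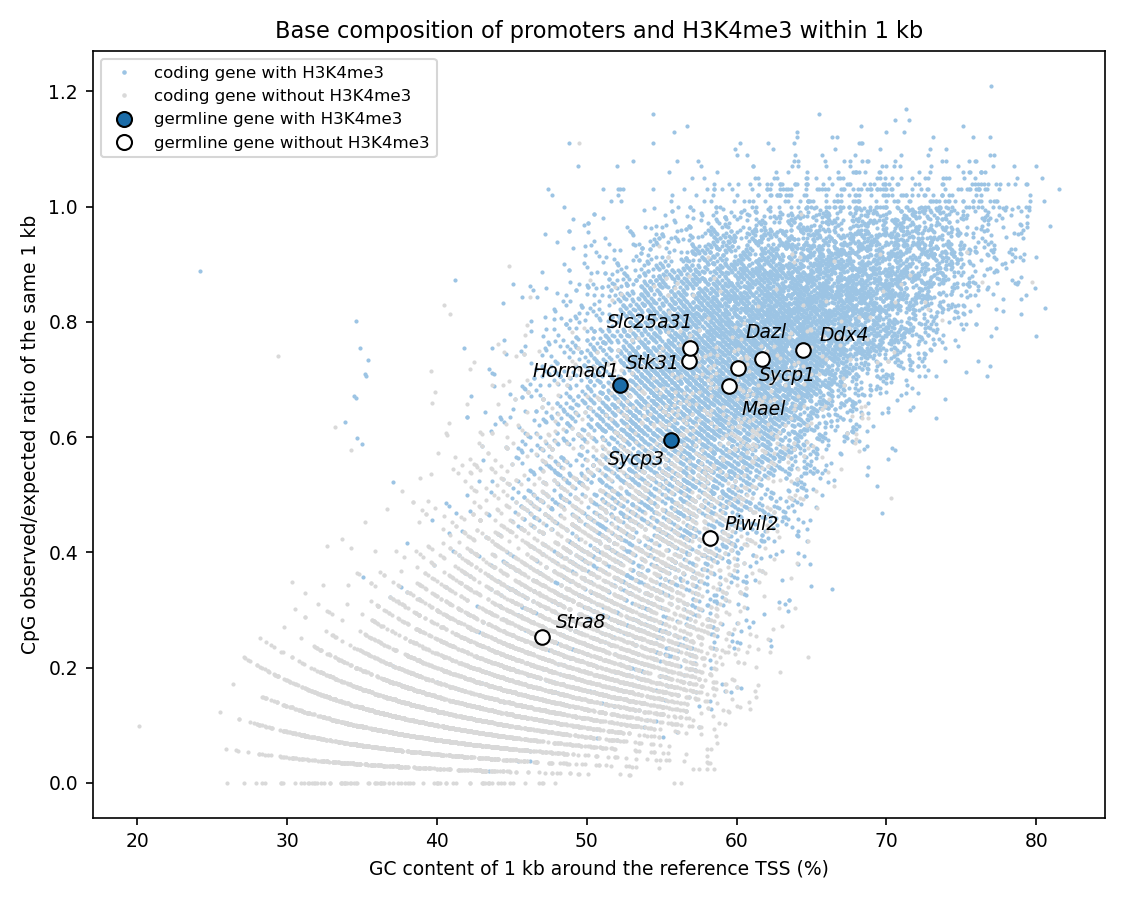
CpG observed/expected ratio against GC content (%) in the 1 kb around the reference TSS, with small points for all protein-coding genes, blue with and grey without H3K4me3 within 1 kb, and large circles for the 10 genes, filled where marked. Apart from Stra8 (ratio 0.254) and Piwil2 (0.425), the open circles lie among the blue points.

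Uniqueness of the sequence was measured at the same places, since reads in repeated sequence can be hard to place. In the 2001 bp centred on the reference TSS, the share of 32-base words occurring more than once was 0% for Dazl and Sycp1, 0.102% for Mael, 0.254% for Slc25a31 and 2.13% for Ddx4. It was 2.18% for Stra8, 9.75% for Piwil2 and 12.3% for Stk31. The windows of the marked genes were at 1.98% (Sycp3) and 3.45% (Hormad1). The 8 unmarked promoters were thus mostly single-copy sequence, with shares on both sides of those of the 2 marked ones. Whether the placement of reads affected the interval lists was not tested.

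Motifs were searched on both strands from 250 bases upstream to 50 bases downstream of the reference TSS. The E-box CACGTG was present at 7 of the 10 genes and in 7.78% of all promoters, or 11.4% of high-CpG promoters. The E2F6-type GCGGGA was present at 6 of the 10 and in 25.4% of all promoters, or 47.4% of high-CpG promoters. Ddx4, Mael, Sycp1, Sycp3, Hormad1 and Slc25a31 held both, as did 2.58% of all promoters. Sycp3 and Hormad1, the genes with H3K4me3, each had 2 E-boxes upstream of the TSS, at positions -46 and -25 in Sycp3 and -57 and -20 in Hormad1 (first base of the match, with the TSS as 0). The other 5 genes with an E-box had 1 each. Over all promoters, 161 (0.734%) had 2 or more E-boxes, and 143 of these had H3K4me3 within 1 kb of the reference TSS. High-CpG promoters made up 105 of the 161, and 103 of these 105 had the mark. The share with the mark there was 58.6% over all genes and 97.2% over all high-CpG promoters. The count of 103 is thus close to its background. In the further germline lists described next, the genes with 2 or more, Piwil1, Tdrd9, Fkbp6 and Sohlh1 (named after their values were seen), had no H3K4me3 at a TSS. Over all promoters with both motifs, 89.9% of 566 had H3K4me3 within 1 kb of the reference TSS, while 4 of the 6 genes here did not. Of the 566, 411 were high-CpG, and 95.9% of those had the mark, against 97.2% of all high-CpG promoters. Another 136 were intermediate, and 81.6% of those had it, against 73.4% of that class. The cAMP response element TGACGTCA was found at 0 of the 10 genes and in 2.49% of promoters. The motif CNCCTCAG, bound by STRA8 with its partner MEIOSIN, was found at Stra8, Dazl, Sycp1 and Stk31, and in 8.35% of promoters. These matches are of letters only and show no binding.

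The rest of the programme was read from 5 further lists of germline genes, 55 genes in all, of which 27 had H3K4me3 and 4 had HA-Tex10 within 1 kb of a TSS. Over all genes the shares were 61.6% and 8.98%, and the HA-Tex10 count is close to its background. In the list of the synaptonemal complex and meiotic cohesins, 3 of 10 were marked. These were Syce2 (1796 bp), 4930447C04Rik (745 bp), known as Six6os1, and Stag3 (365 bp). In the piRNA list, 5 of 14 were marked, Pld6 (1054 bp) and Tdrd5 (824 bp) having the widest intervals. Of meiotic entry and RNA-binding genes, 5 of 10 were marked. The widest were Nanos3, with 2213 bp at a noncoding transcript start, and Ythdc2, with 1364 bp. In the list of other germline genes methylated in somatic cells, 4 of 9 were marked, Rpl10l (2652 bp), Tex14 (1836 bp), D1Pas1 (944 bp) and Tex15 (654 bp, at a start far upstream of the reference TSS). Meiotic recombination genes had the highest count, 10 of 12. Of these 12, 5 were high-CpG and 7 intermediate, classes in which 97.4% and 75.7% of all genes had H3K4me3 at a TSS. The count is thus close to its background. The unmarked genes of this list were Spo11, which makes the meiotic breaks, and Mei1, and the widest intervals were those of Hsf2bp (2160 bp) and Trip13 (1890 bp). Whether intervals counted for these lists also lay at the TSS of a neighbouring gene was not examined.

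HA-Tex10 lay at 3 of the 12 recombination genes, against 8.98% of all genes. The share was 15.6% in high-CpG genes, a class that holds 5 of the 12. It was 10.2% in intermediate genes, the class of the other 7. With a count of 3, nothing is read from the difference. At Dmc1, the meiotic strand-exchange protein, the interval was 325 bp and crossed the reference TSS, from position -198 to position 126 (negative positions are upstream). At Msh5, a meiotic mismatch-repair homologue, it was 290 bp, from -328 to -39. At Trip13, an ATPase that removes HORMAD proteins from synapsed chromosomes, it was 55 bp, from -160 to -106. The remaining gene of the 5 lists was Tex14, whose interval of 426 bp lay 21621 bp downstream of the reference TSS, at another annotated start. None of the other 3 lists had a gene with HA-Tex10.

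Among the 55 genes, H3K4me3 at the reference TSS was present at 13 of 18 high-CpG promoters (72.2%), 11 of 28 intermediate ones (39.3%) and 1 of 9 low ones (11.1%). Over all genes the shares of these classes were 97.2%, 73.4% and 11.9%, so the low-CpG count is close to its background. The high-CpG promoters without it were those of Tex12, Smc1b, Tdrkh, Fkbp6 and Gm4969, named after their values were seen. The genes of known repressors of this programme were read in the same way. All 12, which are genes of PRC1.6 and of DNA or histone methylation, had H3K4me3 at a TSS. Over all genes the share was 61.6%. Of the 12 genes, 8 were high-CpG and 4 intermediate, classes in which 97.4% and 75.7% of all genes had it. The count is thus close to its background. The widest intervals were 3072 bp at Dnmt3b and 3056 bp at Dnmt3a, the de novo DNA methyltransferase genes. That of Dnmt3a began 83839 bp downstream of the reference TSS, at another annotated start, and a different interval covered the reference TSS. HA-Tex10 lay at 3 of these 12, Mga (241 bp), Setdb1 (322 bp) and Dnmt1 (324 bp), against 8.98% of all genes. The share was 15.6% in high-CpG genes, the class of Mga, and 10.2% in intermediate genes, the class of Setdb1 and Dnmt1. With a count of 3, nothing is read from the difference.

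**Figure D5:**
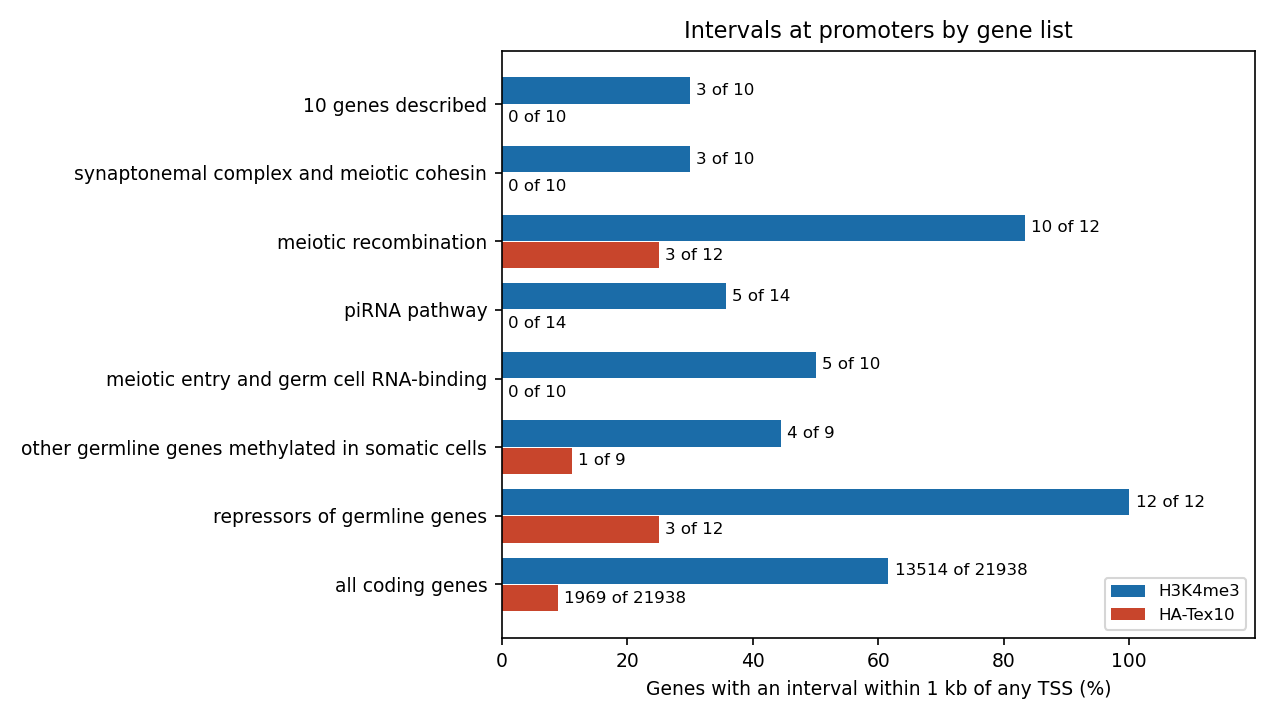
Share of genes (%) with an interval within 1 kb of any TSS, blue for H3K4me3 and red for HA-Tex10, for the 10 genes, 6 further lists and all protein-coding genes, with counts beside the bars. The bar of the 10 genes (3 of 10 with H3K4me3) includes the repeated interval of Sycp1, without which the count is 2, and is below that of all genes (13514 of 21938).

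The labelled cell type was checked by its marker genes. H3K4me3 lay at a TSS of 6 of 7 primordial germ cell genes, Prdm1, Prdm14, Tfap2c, Nanos3, Kit and Dnd1, and not at Dppa3, where the nearest interval was 1372 bp away. At coding-transcript starts the count was 5 of 7, since the Nanos3 interval lay at a noncoding start, from position -8551 to -6339 relative to the reference TSS. H3K4me3 lay at Pou5f1, Nanog and Sox2, with intervals of 6136, 2531 and 6675 bp, and at 0 of 4 genes of later germ cells (Prm1, Tnp1, Acr and Zp3). All 4 of these were low-CpG, a class in which 18% of all genes had it at a TSS. The 0 is thus close to background and nothing is read from it. H3K4me3 also lay at 4 of 4 mesoderm, 3 of 3 neural, 4 of 4 endoderm and 2 of 3 trophoblast markers. Over all genes the share was 61.6%. Presence of the mark alone does not separate these cell types.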

How the data were processed

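The deposited lists hold intervals in bp without scores. Bowtie2 2.3.4.3, SAMtools 1.9, MACS2 2.1.2, HOMER and the build mm10 (GRCm38) are named in the submitters' processing notes, without role or order. The peak threshold, the use of input and the handling of replicates are not given in the sources used here. No interval ended past a GRCm38 chromosome end (0 in either list). The list of HA-Tex10 intervals overlapping H3K4me3 was read only to look up the interval near Stra8, and data from the input samples were not used here.

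An interval counted with 1 bp within 1 kb of the start of any transcript of a GENCODE M21 protein-coding gene on chromosomes 1 to 19, X and Y, or in the body plus 10 kb. The reference TSS was the start of the APPRIS principal transcript. Six6os1 was matched through its RefSeq synonym, and all other listed genes by symbol. The 10 genes, the lists, motifs and alternatives were chosen with earlier results of these data known. All 10 genes were named. From the lists, genes with HA-Tex10, the 2 with the widest H3K4me3 and exceptions of 4 or fewer were named, and neighbours where an interval in the body plus 10 kb lay at their TSS. Names outside this rule are marked as chosen after their values were seen. Alternatives changed the TSS window, the TSS set, the flank, the interval width and the overlap rule. Leaving out mostly repeated intervals (over 50% of 32-base words) was added after seeing the data. Window counting was tested on simulated data. Python 3.11.15, numpy 2.4.6, scipy 1.17.1 and pysam 0.24.0 were used.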

Additional observations from a re-analysis of the deposited data

How the results depend on the processing

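No paired analysis was possible because the replicates of an antibody share 1 list of intervals, which also means that none could be left out. With depth unknown, an interval missing from a list was not detectable at the authors' threshold, which does not show that the mark or Tex10 is absent. Of 44 values under alternatives, 32 stayed within 1.5 times the main count and 12 moved beyond it; 4 of the 44 were added after seeing the data. H3K4me3 at a TSS of the 10 genes went from 3 to 0 genes with intervals wider than the median, and was 2 with coding transcripts or the reference TSS alone and without mostly repeated intervals. In the body plus flank it went from 5 genes to 3 with a 5 kb flank, 8 with 20 kb, 3 in the gene body alone, 2 with wider intervals and 3 without intervals at the TSS of other genes. HA-Tex10 in the body plus flank went from 1 gene to 0 with 5 kb, 2 with 20 kb, and 0 in the gene body, with wider intervals and without intervals at other genes' TSS. HA-Tex10 at a TSS of the 10 genes was 0 in all alternatives run, including windows up to 5 kb. Over all genes, HA-Tex10 at a TSS fell from 1969 to 1044 genes with wider intervals, and H3K4me3 at a TSS from 13514 to 11040. The settings differ in the intervals they admit, and what moved each count was not tested.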
